A study of Homo sapiens with 346 samples.

Results

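Single live cells labelled HepG2 were ranked by their level of FOS, and the 22 cells with the highest FOS were set against the 22 cells with the lowest, out of 67 cells ranked and 334 cells in the whole series. The 23 cells between them belonged to neither group. The cells were chosen by their FOS TPM (a level per transcript length, scaled to a fixed total in each cell), so FOS itself is only described, and all other genes are described for how they stood with it from cell to cell. The FOS-high cells held 708 to 1760 TPM of FOS with a median of 1096 TPM, the FOS-low cells held 0 to 218 TPM with a median of 84.9 TPM, and the cells in neither group had a median of 414 TPM. At the edges of the groups, the lowest FOS-high cell had 708 TPM and the next cell below it 701 TPM, while the highest FOS-low cell had 218 TPM and the next cell above it 253 TPM. The values on either side of each edge lay close together beside the whole range, and FOS was listed at 0 in 3 of the FOS-low cells.

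The series compared live cells with cells kept in 80% methanol for 1 week, in HCT-116, a human colorectal carcinoma line, and in cells labelled HepG2, a name known for a human liver carcinoma line. Cells were grown in DMEM with serum, released with trypsin, sorted singly, and made into libraries with Smart-seq2, a method that reads cDNA along the whole length of polyadenylated transcripts. All 67 cells ranked here were live and not fixed, and the study names no stimulus or genetic change for either group. Live cells were also stained with propidium iodide before sorting. The part of this handling and of the trypsin step in the FOS levels was not tested. HepG2 cells came from more than one experiment, which cannot be separated by the labels, and no culture is named for a cell, so all 67 cells count as 1 sample, no test was made between the groups, and SDs describe the spread over cells only.

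FOS encodes a subunit of AP-1, a transcription factor made of a FOS family and a JUN family protein. It is the textbook immediate early gene: growth factors, serum, stress and cell handling switch its promoter on within minutes through kinase cascades and factors already in the cell, with no new protein needed, and its RNA is short-lived because AU-rich elements mark it for decay. Other genes of the same class, among them EGR1, FOSB, JUN, JUNB, IER2, ATF3 and DUSP1, are known to be induced and shut off on a similar schedule.

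The sequences below are the 250 bases before the transcription start of FOS and of the 4 genes whose level went most closely with it, shown because these genes moved together from cell to cell. They are RefSeq sequences of GRCh38.p14, each 5′ to 3′ on the strand of its gene: FOS at chr14:75278578-75278827 on the plus strand, EGR1 at chr5:138465229-138465478 on the plus strand, FOSB at chr19:45467746-45467995 on the plus strand, JUN at chr1:58784048-58784297 on the minus strand and DUSP1 at chr5:172771196-172771445 on the minus strand. Capitals mark TGACG on either strand (the core of the cyclic AMP response element, where CREB and ATF proteins bind), TGANTCA (the AP-1 site) and the CArG box (the site of serum response factor).
FOS: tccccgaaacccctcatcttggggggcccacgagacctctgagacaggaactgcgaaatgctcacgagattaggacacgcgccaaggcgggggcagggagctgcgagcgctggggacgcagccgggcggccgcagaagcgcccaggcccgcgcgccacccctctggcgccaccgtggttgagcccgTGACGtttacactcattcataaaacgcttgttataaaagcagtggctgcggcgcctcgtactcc
EGR1: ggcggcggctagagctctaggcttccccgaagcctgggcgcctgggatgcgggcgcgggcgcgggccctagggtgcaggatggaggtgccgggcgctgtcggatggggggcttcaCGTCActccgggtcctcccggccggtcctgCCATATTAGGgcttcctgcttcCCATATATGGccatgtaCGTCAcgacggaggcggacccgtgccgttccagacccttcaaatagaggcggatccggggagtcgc
FOSB: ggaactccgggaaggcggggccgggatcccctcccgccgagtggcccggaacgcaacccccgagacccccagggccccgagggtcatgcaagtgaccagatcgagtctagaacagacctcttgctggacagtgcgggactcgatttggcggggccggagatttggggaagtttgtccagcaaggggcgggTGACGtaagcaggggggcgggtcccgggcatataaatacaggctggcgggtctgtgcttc
JUN: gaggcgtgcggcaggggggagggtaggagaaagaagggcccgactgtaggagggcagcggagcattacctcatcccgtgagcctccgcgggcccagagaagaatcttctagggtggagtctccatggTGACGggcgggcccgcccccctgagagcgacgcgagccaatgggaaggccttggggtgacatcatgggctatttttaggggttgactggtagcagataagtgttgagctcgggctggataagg
DUSP1: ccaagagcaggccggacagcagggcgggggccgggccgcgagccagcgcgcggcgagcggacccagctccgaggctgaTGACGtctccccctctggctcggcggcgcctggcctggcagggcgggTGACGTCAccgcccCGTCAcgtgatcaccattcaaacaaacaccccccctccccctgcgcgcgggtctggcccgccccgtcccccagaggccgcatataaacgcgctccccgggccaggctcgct
Each of the 5 promoters held TGACG, which began 64 bases before the start of FOS and 60 bases before that of FOSB. EGR1 had 2 matches to the CArG box, the nearer at 83 bases before the start, and DUSP1 had 4 matches to TGACG, of which 2 overlap on opposite strands. TGANTCA was not found in any of these windows. Only this exact pattern was searched, so a stretch that differs from it, such as tgacatca in the JUN window, is not marked. Bases further upstream were not searched, so a site missing here can lie outside the 250 bases. Among all 35116 RefSeq promoter windows of this length, 21.2% held TGACG, 6.57% TGANTCA and 1.16% a CArG box.

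For contrast, the next sequences are the same stretch of 3 mitotic genes among the 10 with the lowest rho with FOS: CCNB1 at chr5:69166900-69167149, CDC20 at chr1:43358731-43358980 and PLK1 at chr16:23678639-23678888, all on the plus strand. Capitals mark CCAAT (bound by NF-Y) and TTTGAA (the cell cycle genes homology region), on either strand.
CCNB1: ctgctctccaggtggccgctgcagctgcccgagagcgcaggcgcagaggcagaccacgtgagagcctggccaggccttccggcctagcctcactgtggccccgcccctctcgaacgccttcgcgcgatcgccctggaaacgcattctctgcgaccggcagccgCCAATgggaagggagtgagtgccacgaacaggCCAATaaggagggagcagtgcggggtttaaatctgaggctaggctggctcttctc
CDC20: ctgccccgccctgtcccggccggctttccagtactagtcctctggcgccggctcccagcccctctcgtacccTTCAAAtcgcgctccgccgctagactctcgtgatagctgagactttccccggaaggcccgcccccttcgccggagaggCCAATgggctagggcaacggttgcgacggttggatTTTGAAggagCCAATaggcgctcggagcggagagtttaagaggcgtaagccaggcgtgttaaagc
PLK1: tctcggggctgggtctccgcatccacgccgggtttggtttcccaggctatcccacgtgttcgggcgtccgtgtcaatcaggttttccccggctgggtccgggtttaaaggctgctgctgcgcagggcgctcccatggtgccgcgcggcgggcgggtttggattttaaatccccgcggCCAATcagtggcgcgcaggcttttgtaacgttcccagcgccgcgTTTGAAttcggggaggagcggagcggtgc
CCAAT began 55 bases before the start in both CCNB1 and CDC20, and 73 bases before it in PLK1. TTTGAA was found in CDC20 and PLK1 but not in the window of CCNB1. Over all promoter windows the shares were 32.01% for CCAAT and 13.3% for TTTGAA. These matches describe letters only, and no binding was measured here.

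The hepatocyte markers that could be assessed were low in most cells, unlike what the label would lead one to look for. Of 19 hepatocyte markers on the list 11 had a row among the gene values, and none of these 11 passed 1 TPM in at least 50% of the cells. HNF4A, TF, FGB and AHSG reached 1 TPM in 0 of 67 cells, and SERPINA1, the highest of the 11, averaged 2.31 ± 6.09 TPM (SD over 67 cells). ALB and AFP were on the list but had no row, so they could not be assessed. The keratin genes KRT8 and KRT18 averaged 11532 and 6414 TPM, and the receptor gene ESR1 and the transcription factor gene GATA3 were above 1 TPM in all 67 cells, at 48.4 ± 22.1 and 218 ± 118.1 TPM. The cells are therefore called by their label throughout. Markers of blood, fibroblast and endothelial cells were low in most cells: the summed level of 8 blood markers ranged from 0 to 9.62 TPM in FOS-high and from 0.316 to 95.7 TPM in FOS-low cells, CD3E, COL1A2 and DCN were at 0 in every cell, and the part of these RNAs in the results was not tested.

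Depth was similar in both groups. Total reads per cell, read from the steps between transcript values, had a median of 2.25 M in FOS-high cells (1.6 to 3.3 M) and 2.4 M in FOS-low cells (1.5 to 3 M), and the median number of genes above 0 was 13735 and 13895. The share of reads assigned to transcripts had a median of 73.4% in FOS-high and 77.97% in FOS-low cells, and the summed TPM of the listed genes was 856089 and 907744. The libraries of 4 cells stood apart with 20.5% to 57.2% of reads assigned, under 60%, and all 4 were FOS-low. In one of them 8950 genes were above 0, the lowest number of all 67 cells, and in the other 3 FOS was at 0, 0 and 0.274 TPM. Where leaving out these 4 cells takes a named gene under the bound or turns the sign of a list's median, both values are given.

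A gene was described when it passed 1 TPM in at least 50% of the 67 cells, which left 9893 genes besides FOS. The quantity compared is the difference between groups in mean log2(TPM + 1), FOS-high minus FOS-low, and a difference of 1 corresponds to a 2-fold change on that scale and understates the change of low genes. Of these, 1.59% were higher in FOS-high cells by at least 1, and 266 genes (2.69%) were lower by at least 1, while the median over all described genes was -0.01. The difference exceeded the SD over cells within the groups in 56 (35.7%) of the higher and in 38.7% of the lower genes, so most of these genes varied as much within a group as between the groups. Over all 67 cells Spearman's rho with FOS was at least 0.4 for 1.16% of the genes and at most -0.4 for 1.26%. Without the 4 cells with few assigned reads, 110 genes were higher and 402 lower, 62.4% of the higher and 98.5% of the lower genes above were past the same bound again, and the median over all genes moved to -0.17.

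**Figure D1:**
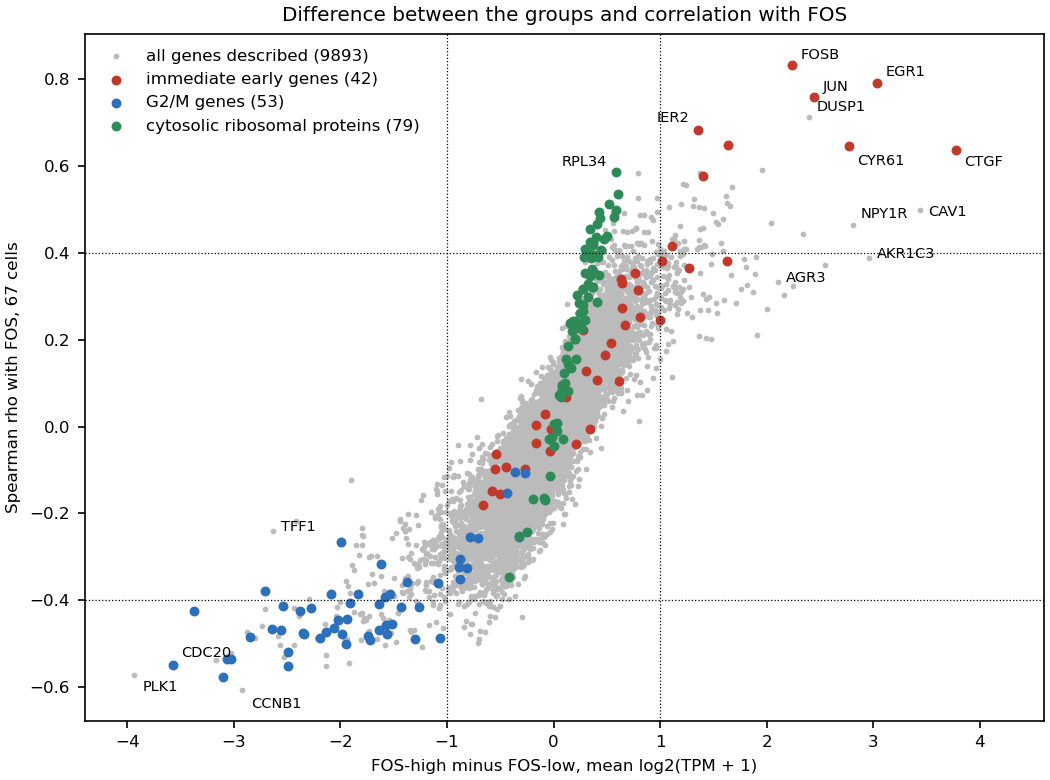
Each point is 1 of 9893 genes, with the difference between 22 FOS-high and 22 FOS-low cells in mean log2(TPM + 1) on the horizontal axis and Spearman's rho with FOS over 67 cells on the vertical axis. Dotted lines mark differences of -1 and 1 and rho of -0.4 and 0.4. Immediate early genes reach the upper right corner (CTGF at 3.77, FOSB at a rho of 0.83), G2/M genes fill the lower left, and cytosolic ribosomal proteins form a steep band at small differences.

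The genes that went most closely with FOS were other immediate early genes. The 10 highest values of rho belonged to FOSB (0.83), EGR1 (0.79), JUN (0.76), DUSP1 (0.71), IER2 (0.68), PPP1R15A (0.65), CYR61 (0.65), CTGF (0.64), SLC46A3 (0.59) and RPL34 (0.59), and 8 of these are known immediate early genes or their feedback regulators. Of 42 described immediate early genes in 3 lists, 13 were higher by at least 1 and 0 were lower, with a median difference of 0.58, beside 1.59% and 2.69% of all genes. They made up 8.28% of the genes higher past the bound and 0.425% of all described genes. Without the 4 cells, 11 of the 42 were higher past the bound, beside 1.11% of all genes, and the median was 0.36. AMOTL2 and PLK2 were under the bound there.

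Among the AP-1 subunits, FOSB, the closest relative of FOS, had 3.27 to 28.7 TPM in FOS-high cells with a median of 8.87 TPM, and 0 to 6.14 TPM in FOS-low cells with a median of 0.841 TPM. Its levels overlapped little, since 18 of 22 FOS-high cells exceeded the highest FOS-low cell. FOSB passed 1 TPM in 22 of 22 FOS-high cells (100%, exact 95% interval 84.6% to 100%) and in 9 of 22 FOS-low cells (40.9%, 20.7% to 63.6%), intervals that cover counting error only. The difference in mean log2(TPM + 1) was 2.24, against an SD of 0.65 over FOS-high and 0.95 over FOS-low cells.

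JUN, the main partner of FOS, had 12.9 to 155.06 TPM in FOS-high cells with a median of 31.9 TPM, and 0 to 33.4 TPM in FOS-low cells with a median of 7.74 TPM, a difference of 2.45. All 22 FOS-high cells lay above the FOS-low median of JUN, and 10 lay above every FOS-low cell. JUNB, a partner of weaker transforming activity, had medians of 148.3 and 72.5 TPM and a difference of 1.40. Its FOS-low values reached 262 TPM, so only 2 FOS-high cells exceeded them all. ATF3, a stress-induced bZIP repressor, was patchy: 14 of 22 FOS-high and 8 of 22 FOS-low cells passed 1 TPM, for a difference of 1.63.

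The remaining described AP-1 and related bZIP genes did not reach the bound. FOSL2 and JUND, which is known to be made at a steady level, differed by -0.04 and 0.02, and ATF2, ATF7, BATF and ATF4 by -0.27, -0.16, -0.16 and 0.34. FOSL1, JDP2, MAFF, MAFG, MAFK, BATF2 and BATF3 passed 1 TPM in too few cells to be described, FOSL1 with medians of 0 TPM in both groups. These were not all alike in the groups: JDP2 passed 1 TPM in 14 of 22 FOS-high and 4 of 22 FOS-low cells, and BATF3 in 4 of 22 of each. In all, 4 of 10 described AP-1 genes were higher by at least 1, beside 1.59% of all genes. The list's median difference was 0.18, and 4 of the 10 were below 0.

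Among the other immediate early transcription factors, EGR1, a zinc finger factor with serum response elements in its promoter, had 18.6 to 168.4 TPM in FOS-high cells with a median of 65.4 TPM, and 0 to 104.6 TPM in FOS-low cells with a median of 8.11 TPM. The difference was 3.04, the second highest among genes of the 3 lists, and every FOS-high cell lay above the FOS-low median. IER2, a small nuclear protein induced by growth factors, had medians of 184.5 and 70.3 TPM and a difference of 1.36. MYC, the growth-promoting factor, had medians of 80.9 and 28.9 TPM and a difference of 1.11, with 4 FOS-high cells below the FOS-low median. Of 15 described factors these 3 were higher past the bound, beside 1.59% of all genes, 0 were lower past it, and the median was 0.64. NR4A2, an orphan nuclear receptor, differed by 0.81.

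The secreted and cytoplasmic immediate early genes held the largest positive difference of the genes described, and 6 of 17 were higher past the bound, beside 1.59% of all genes. CTGF, a matricellular protein also known as CCN2, had 7.06 to 263 TPM in FOS-high cells with a median of 45.7 TPM, and 0 to 37.8 TPM in FOS-low cells with a median of 1.69 TPM, for a difference of 3.77. It passed 1 TPM in all 22 FOS-high and in 12 of 22 FOS-low cells, and 13 FOS-high cells exceeded every FOS-low cell. CYR61, its close relative CCN1, had medians of 36.97 and 6.41 TPM and a difference of 2.77. PPP1R15A, which brings a phosphatase to eIF2-alpha under stress, had medians of 59.8 and 18.8 TPM and a difference of 1.64. AMOTL2, BTG1 and PLK2 differed by 1.27, 1.02 and 1.00, the last with an SD within groups of 2.11. They differed by 0.61, 1.11 and 0.82 without the 4 cells.

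CTGF, CYR61, AMOTL2 and NT5E are also textbook targets of YAP and TEAD, the effectors of the Hippo pathway. Of 13 described genes of that list these 4 were higher by at least 1, beside 1.59% of all genes, 0 were lower, and 12 were above 0, with a median of 0.62. Without the 4 cells with few assigned reads AMOTL2 was under the bound (0.61) and the median of the list was 0.21. The genes of TEAD1, TEAD4 and WWTR1 themselves differed by 0.11, -0.16 and 0.34. YAP1 is on the list as well, and its value is not given here.

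**Figure D2:**
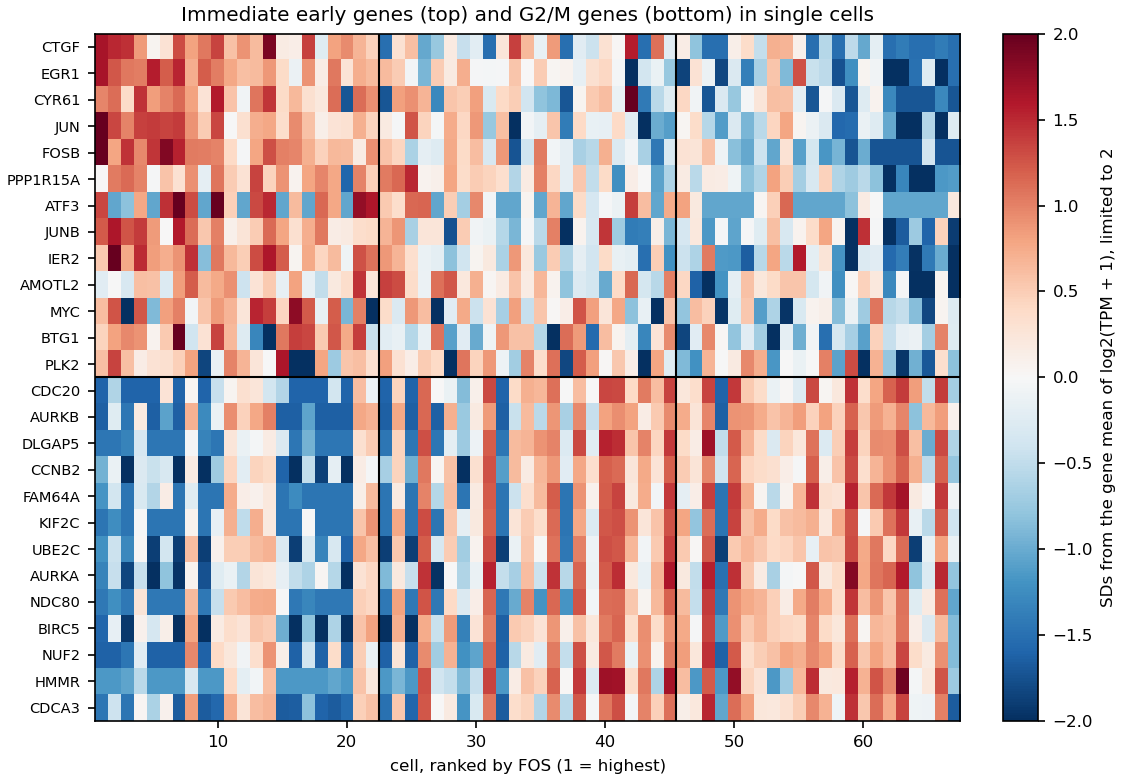
Rows are the 13 immediate early genes higher in FOS-high cells by at least 1 (top) and the 13 G2/M list genes with the lowest differences (bottom), and columns are 67 cells ranked by FOS from 1 (highest) to 67, with lines after ranks 22 and 45. Colour is the distance from the gene's mean of log2(TPM + 1) in SDs. The upper block turns from red to blue along the ranking while the lower block turns the other way, with single cells of the opposite colour in every group.

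Among genes that limit the immediate early response, a few were higher in FOS-high cells while the lists as a whole were near 0. DUSP1, a phosphatase that switches off MAP kinases, had 58.2 to 470 TPM in FOS-high cells with a median of 186.8 TPM, and 3.03 to 158.2 TPM in FOS-low cells with a median of 39.5 TPM. The difference was 2.39, and 13 FOS-high cells exceeded every FOS-low cell. It was the 1 gene of 6 described feedback phosphatases and ERK inhibitors past the bound, beside 1.59% of all genes higher past it, and the list's median was 0.13. ZFP36 and ZFP36L2, which bind AU-rich elements and speed the decay of RNAs such as that of FOS, differed by 1.19 and 1.39, with medians of 61.9 and 27.2 TPM for ZFP36 and 49.6 and 18.1 TPM for ZFP36L2. They were the 2 past the bound among 19 described decay factors, beside 1.59% of all genes, and 8 of the 19 were below 0, with a median of 0.09. ZFP36 differed by 0.83, under the bound, and ZFP36L2 by 1.18 without the 4 cells, and the median of the list was then -0.21.

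The RNA levels of the parts of the pathway above FOS differed little, and the activity of their proteins was not measured. Of 25 described receptors and kinases 0 were higher past the bound and HRAS was lower, by 1.05 on the log2 scale (-1.05), with a list median of 0.03. Over all genes 1.59% were higher and 2.69% lower past the bound. Of 23 described factors that bind or serve the FOS promoter 0 were past the bound in either direction, with a range of -0.64 to 0.38. Cytoskeletal targets of serum response factor, 24 of them described, had 0 past the bound and a median of -0.02, and FHL2 was the highest at 0.94.

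The immediate early genes also varied with one another. Over the 66 pairs of 12 of these genes, chosen after their values were seen, rho over the 67 cells ranged from 0.11 to 0.76 with a median of 0.50. These genes share libraries and depth, and the correlations are descriptions. In the 23 cells of neither group, which the comparison did not use, rho with FOS was 0.65 for PPP1R15A, 0.58 for JUN, 0.46 for EGR1, 0.35 for JUNB, 0.34 for FOSB and 0.33 for IER2. It was 0.20 for DUSP1 and CYR61, 0.08 for ATF3 and -0.20 for CTGF. CTGF thus differed between the extremes while its rho was below 0 within the middle of the ranking. These 23 cells held only 253 to 701 TPM of FOS, a part of the whole range. Of the genes higher past the bound, 64.97% had a positive rho in those 23 cells, against 40.2% of all described genes, and of the 266 lower genes 16.9% did.

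**Figure D3:**
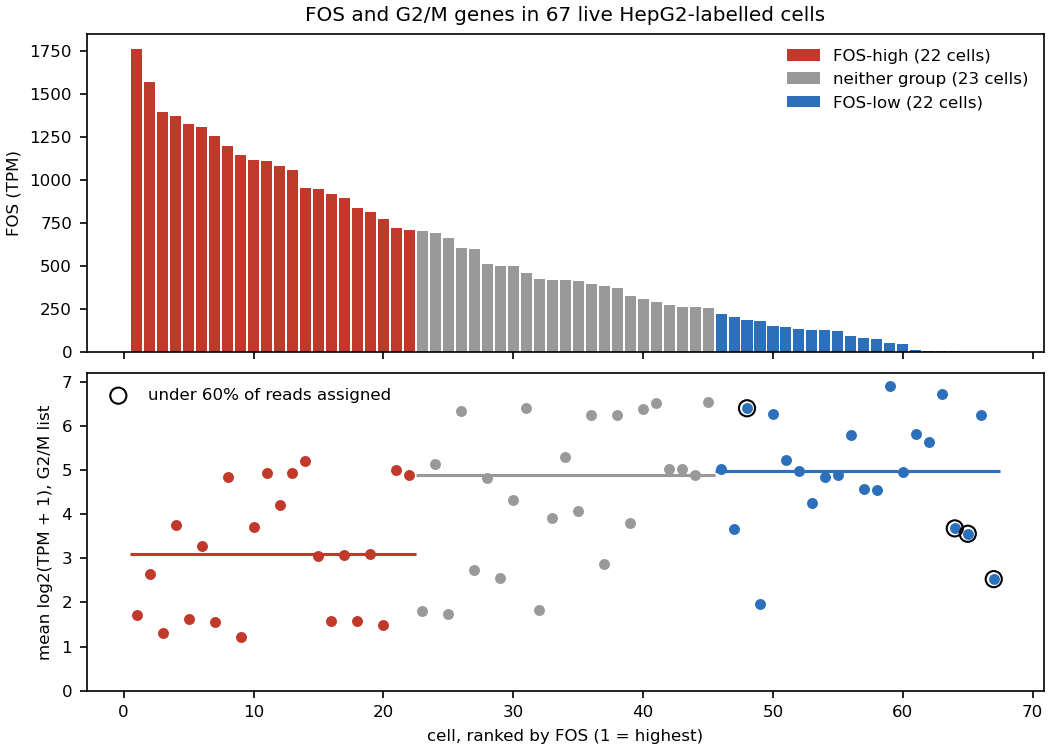
The upper panel gives FOS TPM in each of 67 cells ranked by FOS, and the lower panel the mean log2(TPM + 1) over the G2/M list in the same cells, with horizontal lines at group medians of 3.09 (FOS-high), 4.88 (neither group) and 4.97 (FOS-low). Open circles mark the 4 cells with under 60% of reads assigned. Low G2/M means are most common at the left, among cells with the highest FOS.

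Mitotic genes were the largest listed group among the genes that stood against FOS, although most of those genes were on no G2/M list. Of 53 described genes of the G2/M list, 43 were lower in FOS-high cells by at least 1, 0 were higher and all 53 were below 0, with a median of -1.83, beside 2.69% of all genes. These 43 were 16.2% of the 266 genes lower past the bound, and the list held 0.536% of all described genes. The 10 lowest values of rho belonged to CCNB1, DLGAP5, PLK1, PRR11, HMMR, CDC20, ESPL1, CDKN3, CCNB2 and FAM64A, from -0.61 to -0.53. The mean log2(TPM + 1) over the list was 3.12 ± 1.44 in FOS-high and 4.93 ± 1.30 in FOS-low cells (SD, n = 22 cells each), and its rho with FOS over 67 cells was -0.49.

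PLK1, the kinase that drives entry into and exit from mitosis, had 0 to 74.5 TPM in FOS-high cells with a median of 5.24 TPM, and 0 to 815 TPM in FOS-low cells with a median of 82.9 TPM. The difference was -3.93, and none of the FOS-high cells exceeded the FOS-low median. CCNB1, cyclin B1, had medians of 20.9 and 100.03 TPM and a difference of -2.92, again with all 22 FOS-high cells below the FOS-low median. CDC20, which activates the anaphase-promoting complex, had medians of 6.50 and 51.2 TPM and a difference of -3.57. DLGAP5, a spindle protein, passed 1 TPM in 10 of 22 FOS-high cells and in 22 of 22 FOS-low cells. AURKB, CDKN3, CCNB2, FAM64A and FAM83D differed by -3.37, -3.17, -3.07, -3.03 and -3.03, and KIF20A, KIF2C, CCNA2, PTTG1, UBE2C and PBK by -2.88 to -2.71.

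S phase genes did not share this pattern. Of 43 described, 2 were higher by at least 1 (UNG at 1.27 and CDCA7 at 1.06) and 4 were lower, among them RRM2 at -2.42, CDC45 at -1.23 and GMNN at -1.05, with a median of -0.25, beside 1.59% and 2.69% of all genes. Without the 4 cells UNG and CDCA7 were under the bound, at 0.93 and 0.94, and with the cell cycle means as covariates UNG was at 0.45. In the cells with a G2/M mean of at least 4 the median of the S phase list was 0.90, the opposite sign. The mean over the S phase list was 4.05 ± 1.58 in FOS-high and 4.30 ± 0.89 in FOS-low cells, with a rho of -0.0049 with FOS. The FOS-high cells thus spread more widely, from 1.52 to 5.88, than the FOS-low cells, from 1.90 to 5.70. The cell cycle inhibitors and G1 cyclins, 19 described, had 1 higher past the bound (MYC, which is also on that list) and a median of 0.03.

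The split by mitotic genes was not a clean one. Of the 39 cells with a G2/M mean of at least 4, 7 were FOS-high, 15 in neither group and 17 FOS-low, and of the 28 cells under 4, 15 were FOS-high, 8 in neither group and 5 FOS-low. FOS had a median of 257 TPM in the former and 790 TPM in the latter, and it ran from 0 to 1198 TPM and from 0 to 1760 TPM. Within the 39 cells with high G2/M genes, rho with FOS was 0.80 for FOSB, 0.73 for DUSP1, 0.70 for PPP1R15A, 0.67 for EGR1 and 0.64 for JUN, and within the 28 others it was 0.87, 0.64, 0.56, 0.83 and 0.84. These 5 genes went with FOS at both levels of mitotic genes, whereas JUNB had a rho of 0.30 in the former and 0.84 in the latter. CTGF had a rho of 0.56 and 0.76. The 5 genes were already among those with the highest rho over all ranked cells, and the split was made after the data were seen. Their high rho within parts of the same cells is thus a description, and a link between FOS and these genes apart from the cell cycle was not tested. With both cell cycle means as covariates over the 44 cells, the difference was 2.69 for EGR1, 1.86 for FOSB, 1.72 for JUN and 3.68 for CTGF. In that fit 15 of 42 immediate early genes were higher past the bound and 1 was lower, beside 4.37% and 1.11% of all genes. The median of all genes moved to 0.22 there, and the share of all genes higher past the bound rose from 1.59%.

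Genes outside both groups made up the rest of the largest differences. CAV1, the coat protein of caveolae, had 1.25 to 561 TPM in FOS-high cells with a median of 89.95 TPM, and 0 to 112.7 TPM in FOS-low cells with a median of 2.99 TPM, for a difference of 3.44. Its rho over all 67 cells was 0.50 and within the 23 cells of neither group -0.10. In the cells with a G2/M mean of at least 4 and under 4 it was 0.47 and 0.53. AKR1C3, an aldo-keto reductase of steroid metabolism, differed by 2.96 with medians of 58.4 and 0.811 TPM. It has near-identical paralogs, between which reads can be split, and its SD over FOS-high cells was 3.29, so its value is uncertain. NPY1R, a neuropeptide Y receptor, differed by 2.81, ERP27, a protein of the endoplasmic reticulum, by 2.55, and SCIN, an actin-severing protein, by 2.16. In cells with a G2/M mean of at least 4 NPY1R differed by 0.99, under the bound, and ERP27 and SCIN by 3.12 and 1.59. With the cell cycle means as covariates NPY1R differed by 3.82. SNORD104 and LOC107986951, at 2.25 and 2.34, are rows that can share reads with overlapping transcripts. With the cell cycle means as covariates they were at 0.99 and 2.57, and in cells with a G2/M mean of at least 4 at 0.87 and 2.11. SLC46A3, a lysosomal transporter, was low but regular, with medians of 6.72 and 0 TPM and 12 FOS-high cells above every FOS-low cell.

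Among the estrogen receptor and luminal genes, 2 of 20 described were higher past the bound and 1 was lower, beside 1.59% and 2.69% of all genes. The median of the list was 0.04. GATA3 had 82.8 to 489 TPM in FOS-high cells and 25.6 to 281 TPM in FOS-low cells, with medians of 256 and 110 TPM and a difference of 1.08, which was 0.997, just under the bound, without the 4 cells. AGR2 and its relative AGR3, disulfide isomerases of secretory cells, differed by 1.79 and 2.10, respectively, with SDs within groups of 2.62 and 3.34. TFF1, a secreted trefoil peptide and a classic estrogen target, ran the other way at -2.63, with medians of 246 and 1149 TPM. Its values spanned 0 to 7098 TPM in FOS-high cells, its rho with FOS was only -0.24, and it was 0.33 in the 23 cells of neither group.

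Stress genes were split. DDIT3, the transcription factor CHOP, had 4.87 to 63.6 TPM in FOS-high cells and 0 to 45.2 TPM in FOS-low cells, with medians of 18.1 and 4.33 TPM and a difference of 2.04, and all 22 FOS-high cells lay above the FOS-low median. Its rho with FOS was 0.47 over all 67 cells and -0.19 within the 23 cells of neither group. In the cells with a G2/M mean of at least 4 and under 4 it was 0.40 and 0.50. STC2, a secreted glycoprotein, differed by 1.22, whereas SLC7A5, an amino acid transporter, differed by -1.28, and the median of 22 described genes of unfolded protein and amino acid stress was -0.01. Of 26 described heat shock proteins 0 were past the bound, and 21 were below 0 with a median of -0.13. HSPE1, a mitochondrial chaperonin, had the lowest rho of that list at -0.47. Targets of p53 had 0 of 20 past the bound and NF-kB targets 0 of 7, with medians of -0.06 and -0.19. Hypoxia and glycolysis genes had 0 of 25 past the bound (median -0.12), delayed AP-1 targets 0 of 6 (0.11), and the antioxidant list 1 of 17, OSGIN1 at -1.01 (-0.16). The targets of TGF-beta and BMP, 9 described, had JUNB higher and TGFBI lower past the bound (-1.05 for TGFBI) and a median of 0.06. ISG15, an interferon-induced modifier, differed by -1.91, the 1 of 15 described interferon targets past the bound. Over all genes 1.59% were higher and 2.69% lower past it.

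Housekeeping groups moved by small amounts that many members shared. Of 79 cytosolic ribosomal protein genes 0 were past the bound, but 69 were above 0 with a median of 0.25, and 17 had a rho of at least 0.4, beside 1.16% of all genes. RPL34 had 695 to 1545 TPM in FOS-high cells and 479 to 1128 TPM in FOS-low cells, with medians of 1032 and 721 TPM. RPS4X had medians of 1233 and 847 TPM, and 12 FOS-high cells exceeded every FOS-low cell. The median of the list was 0.23 after median ratio scaling, 0.31 with ribosomal RNA left out, 0.13 without the 4 cells and 0.13 with the cell cycle means as covariates, in a fit where the median of all genes was 0.22. Of the host genes and long noncoding RNAs 2 of 19 were higher past the bound, beside 1.59% of all genes, and 15 were above 0. The 2 were EPB41L4A-AS1 at 1.40 and SNHG15 at 1.09 (0.83 without the 4 cells). The median of that list was 0.48, and it was 0.20 with the cell cycle means as covariates, below the median of all genes in that fit, and 0.19 in cells with a G2/M mean of at least 4. Among its genes was GAS5, a host of small nucleolar RNAs whose own transcript carries a terminal oligopyrimidine tract, at 501 against 294 TPM in the medians.

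The opposite shift was seen in 54 of 59 nuclear genes of the respiratory chain (median -0.27), 30 of 31 proteasome subunits (-0.31), all 8 chaperonin subunits (-0.20) and 23 of 27 genes of cholesterol and fatty acid synthesis (-0.33). In these 4 lists a single gene was past the bound, MVD of the mevalonate pathway at -1.20. With the cell cycle means as covariates the medians were -0.05, 0.11, 0.18 and 0.14, so the sign of the last 3 flipped there, in a fit whose median over all genes was 0.22, and it was kept under both rescalings of TPM. Without the 4 cells, where the median of all genes was -0.17, 8 of 30 list medians went from above 0 to below it: splicing factors (-0.11), decay factors (-0.21), receptors and kinases (-0.15), delayed AP-1 targets (-0.12), targets of TGF-beta and BMP (-0.05), G1 cyclins and inhibitors (-0.08), estrogen receptor and luminal genes (-0.07) and interferon targets (-0.34, from 0.03). Splicing factors, 29 described, had a median of 0.04 with all cells, and 3 ribosomal RNA rows one of 0.03.

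**Figure D4:**
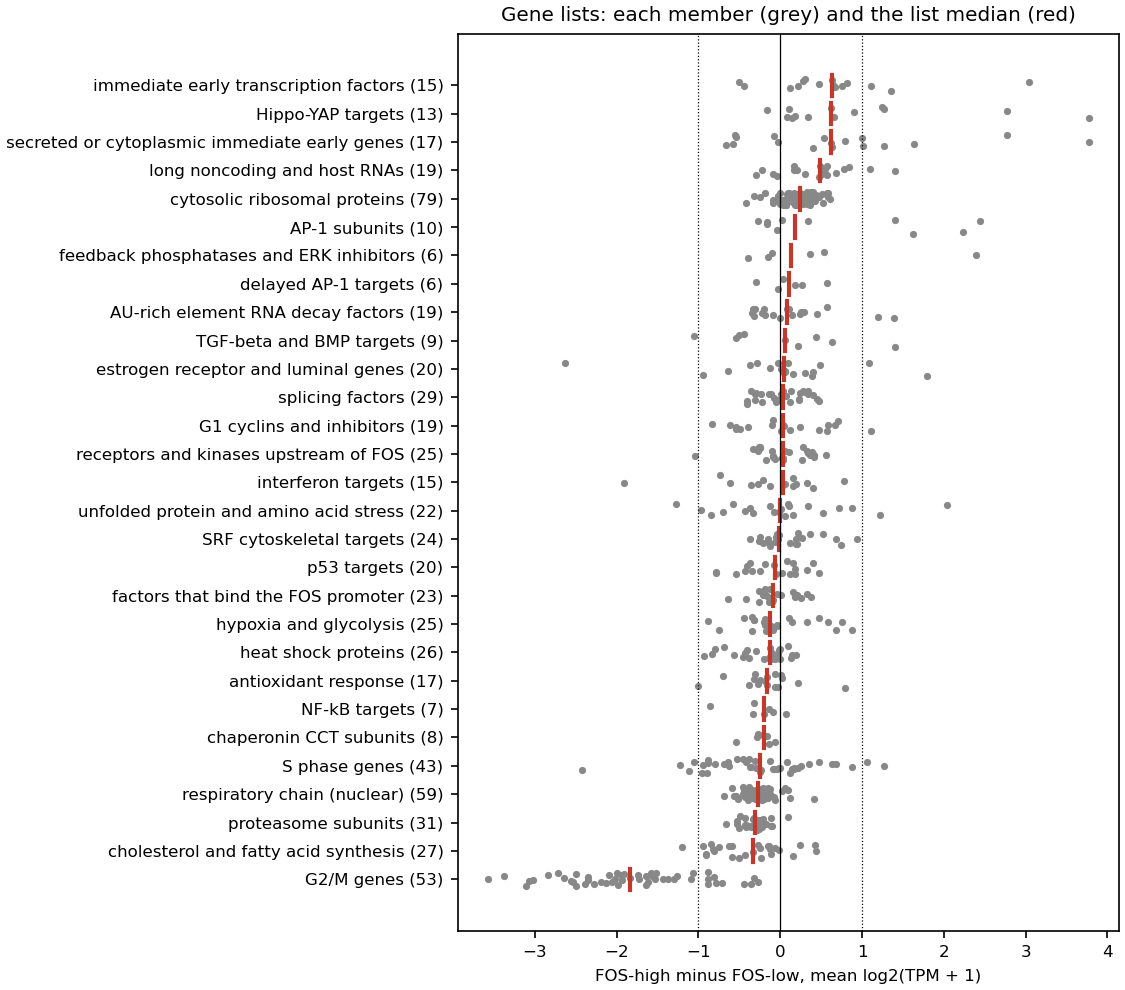
Each grey point is a described gene, placed by its difference between FOS-high and FOS-low cells in mean log2(TPM + 1), and each red bar is the median of a list, with the number of described genes in parentheses. The G2/M list (median -1.83) lies apart from all other lists, immediate early transcription factors have the highest median (0.64), and ribosomal proteins form a narrow cluster above 0.

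The promoters of the genes past the bound were searched as well. RefSeq windows were matched for 11 of the 13 immediate early genes, with 13 windows in all, of which 8 (61.5%) held TGACG, 0 held TGANTCA and 1 held a CArG box. Of 38 windows of immediate early genes that were not past the bound, 18 (47.4%) held TGACG. For the mitotic genes past the bound 34 of 43 were matched, with 40 windows, of which 30 (75%) held CCAAT and 22 (55%) TTTGAA, beside 32.01% and 13.3% of all windows, and 16 (40%) held TGACG. Windows of 1 gene can overlap, so these shares are descriptions.

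In live HCT-116 cells the same ranking was made over 91 cells, with 30 cells in each group, for values side by side. FOS was lower and less spread there, at 146.1 to 391 TPM (median 205 TPM) in the high and 0 to 83.6 TPM (median 46.9 TPM) in the low group, so the groups are not matched for FOS between the lines. Of 9186 described genes 62 (0.675%) were higher by at least 1 and 22 (0.239%) lower. EGR1, FOSB and JUNB were past the bound there too, at 1.29, 1.09 and 1.03, and JUN and DUSP1 differed by 0.51 and 0.84. Of 37 immediate early genes described in both lines 5 were higher past the bound in HCT-116, the other two being BTG2 (1.27) and ID2 (1.26), and the median was 0.30. DDIT3 was lower there (-1.22), MYC and ATF3 were at -0.47 and -0.57, and the differences between the lines were not tested.

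The mitotic genes of HCT-116 showed no such shift. The G2/M list had 2 of 52 genes higher past the bound, PSRC1 (1.53) and CKAP2 (1.03), 0 lower, and a median of 0.20, and the rho of its mean with FOS was 0.16 over 91 cells, against -0.49 in the HepG2-labelled cells. Of the genes described in both lines and higher past the bound in HepG2-labelled cells, 5 of 92 (5.43%) were also higher in HCT-116, which is 10.2% of the 49 such genes there, beside 0.599% of all 8182 genes described in both lines. Of those lower past the bound, 0 of 231 were also lower in HCT-116, where 0.159% of all shared genes were, so that nothing can be read from the 0.

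**Figure D5:**
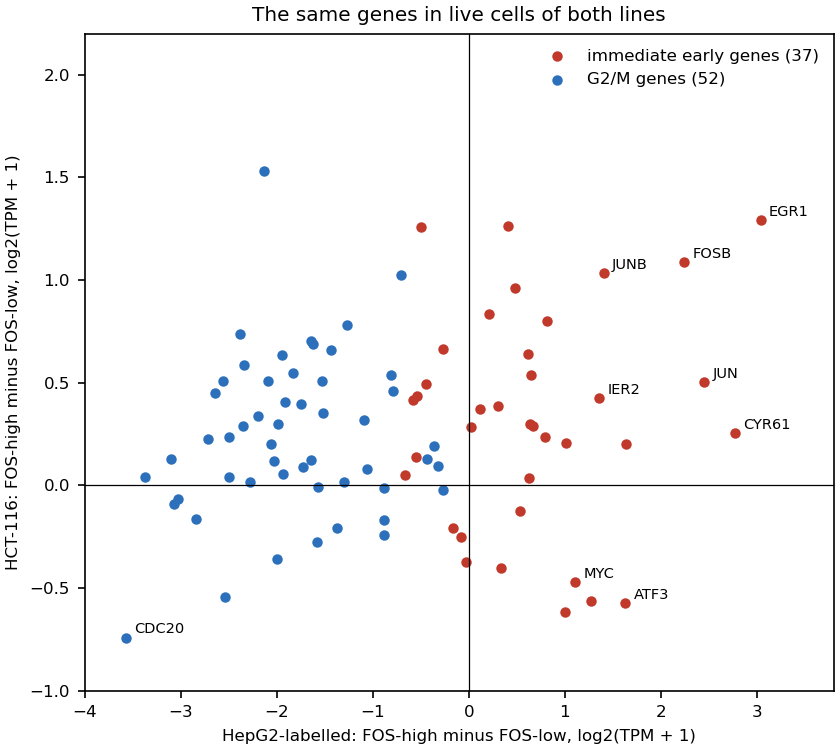
Each point is a gene described in both lines, with the difference between FOS-high and FOS-low cells in mean log2(TPM + 1) for HepG2-labelled cells (22 against 22 cells) on the horizontal and for HCT-116 (30 against 30 cells) on the vertical axis. EGR1, FOSB and JUNB are past 1 on both axes, whereas the G2/M genes are spread on the left around a vertical median of 0.20.

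In the 82 fixed HepG2-labelled cells these genes had lower means, some near the floor and others well detected. FOS passed 1 TPM in 50 cells and averaged 19.5 ± 50.9 TPM (SD), beside 539 ± 458 TPM in the live cells, and since the fixed libraries were made later, fixation and batch cannot be told apart. FOSB averaged 0.0466 TPM in fixed and 5.04 TPM in live cells, JUN 1.43 and 22.4 TPM, EGR1 6.70 and 38.2 TPM, and DUSP1 11.7 and 124.2 TPM. JUNB averaged 33.995 and 105.3 TPM and IER2 16.1 and 134.96 TPM, and they passed 1 TPM in 79 and 77 of the 82 fixed cells. FOS was at 0 in 31 of the 82 fixed cells, and FOSB was near the floor. Values of rho near 0 there do not show that an association was lost. Over the fixed cells, Spearman's rho with FOS was 0.01 for FOSB, -0.01 for JUN, 0.01 for DUSP1, 0.01 for IER2, 0.16 for JUNB and 0.31 for EGR1. It was 0.53 for CAV1, 0.47 for RPL34 and 0.44 for AKR1C3, and 0.52, 0.43 and 0.41 without 6 fixed columns that correlated above 0.95 with another.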

How the data were processed

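The authors quantified reads with kallisto 0.46.0, per the submitters' processing notes, which name GRCh38, and deposited gene TPM, made by adding up transcripts. The deposited transcript values are CPM by their scale, and were used here only for the depth of each cell: total reads to the nearest 0.1 M from the steps between values, and the share assigned from their sum. Steps gave whole reads (within 0.001) for 24.2% to 39.0% of low values, so counts were not rebuilt.

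One of 68 live columns equals a fixed column and was left out of both. Cells in each group were chosen by FOS TPM. Genes with TPM above 1 in at least 50% of the cells were compared by mean log2(TPM + 1), with no test, since cells are not replicates. Each difference of at least 1 counts as past the bound. Members of the comparison and all 33 gene lists were chosen with earlier results of these data known. Text names, apart from FOS, the 15 highest and 15 lowest differences whose rho has the same sign, the 10 highest and 10 lowest rho, the 4 largest differences of each list, and all AP-1 genes, while others named in list descriptions were chosen after their values were seen, and 1 gene that the rule names is not reported here. Promoters are RefSeq sequences of GRCh38.p14.

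Alternatives were a pseudocount of 0.1, other filters, rescalings, group sizes, all live columns, cells paired on total reads, and covariates. Leaving out cells with under 60% of reads assigned, and keeping cells with a G2/M mean of at least 4, were added after the data were seen. Python 3.11.15, numpy 2.4.6, pandas 2.3.3, scipy 1.17.1 and matplotlib 3.10.9 were used, and the computations were tested on simulated data.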

Additional observations from a re-analysis of the deposited data

How the results depend on the processing

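No paired analysis was possible because the result comes from no test and the columns carry no replicate number shared between the groups. Shares are of the genes described. The share of genes higher and lower past the bound, 1.59% and 2.69% as reported, was 4.81% and 7.75% with a pseudocount of 0.1, 4.37% and 1.11% with the cell cycle means as covariates, 1.70% lower with the ratio of mean TPM, 0.819% higher with 33 cells a group, 4.06% lower without cells under 60% of reads assigned, and 2.57% higher in cells with a G2/M mean of at least 4. In that last setting, where 7 FOS-high and 17 FOS-low cells remained, 13 G2/M genes were lower past the bound, the G1 list had a median of 0.61 and the S phase list one of 0.90, against -0.25 as reported. With the cell cycle means as covariates the G2/M list had a median of 0.0452, with 1 gene higher and 0 lower, as that fit removes the list's own mean. The same fit, a pseudocount of 0.1 and cells paired on total reads each left 1 immediate early gene lower. A rho of at least 0.4 was seen in 2.43% of genes by Pearson's r, 1.84% with depth and cell cycle held, and 2.02% in the cells with high G2/M genes, and one of at most -0.4 in 2.92% after median ratio scaling, 0.192% by Pearson's r, 0.0606% with depth and cell cycle held, and 4.81% without the cells with few assigned reads. In HCT-116, 4.91% were higher and 1.98% lower with a pseudocount of 0.1, and 1.45% and 0.446% with 22 cells a group. Signs turned for CDC45 with the ratio of mean TPM (0.00557), for HMMR (0.00376), KIF20A (0.22), PTTG1 (0.46) and UBE2C (0.17) with the cell cycle means as covariates, and for AGR3 (-0.0701), CDC45 (0.99) and RRM2 (1.10) in cells with a G2/M mean of at least 4. Except where the setting's own construction shows it, the cause was not tested. Depth of 1.5 to 3.7 M reads per cell limits genes near 1 TPM, whose zeros in single cells cannot be told apart from missed transcripts.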
